A study of Sus scrofa with 12 samples.

Results

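The 4 microRNAs described here, in vesicles of pig stromal cells, are ssc-miR-100, ssc-miR-99a-5p and ssc-miR-99b, which make up the miR-99/100 family in the table, and ssc-miR-125a (the prefix for pig is left out from here on). They were chosen by name, as the measured members of that family plus miR-125a, whose gene lies beside that of miR-99b, and they are 4 of the 252 mature pig miRNAs listed. The cells were wild-type mesenchymal stromal cells (MSCs) from the bone marrow of juvenile Yucatan minipigs, expanded on plates to passage P3 and frozen before use. The 4 donors and 3 culture methods gave 12 libraries, 1 for each pairing of donor and method. In the perfusion group (n = 4) the cells sat on bioscaffolds with medium circulating at 4 mL/min. In the microcarrier group (n = 4) they grew on microcarriers in a spinner flask, at first without serum and then with 10% fetal bovine serum (FBS). In the plate group (n = 4) they grew on tissue culture plates in DMEM with 10% FBS. Whether the perfusion medium held serum is not stated in the labels. The extracellular vesicles shed into the medium were pelleted, and their small RNA was sequenced. The groups thus differ in surface, flow and possibly serum at once, and these cannot be told apart.

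MicroRNAs are short RNAs that guide silencing proteins to messages with a matching site, chiefly through the seed at their 5′ end. The members of the miR-99/100 family have similar sequences and repress mTOR, a kinase that drives growth, among other targets. miR-125a is a vertebrate relative of the worm miRNA lin-4, a regulator of developmental timing. In mammals the genes of both families lie in clusters with let-7 genes, a family known for promoting differentiation. In RefSeq's pig annotation (Sscrofa11.1) the nearest miRNA genes to MIR100 on one side were MIRLET7A-1 and then MIR125B-1. MIR99A stood next to MIRLET7C, and MIR125A, MIRLET7E and MIR99B followed each other directly. Clustered miRNAs can be cut from a shared primary transcript, so each member is also set beside the let-7 miRNA of its cluster.

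The libraries held 264407 reads (plate, donor 2) to 3253003 reads (plate, donor 4), recovered from the steps between the deposited values. The 6 stromal miRNAs with a row (miR-214 was sought under a pair of names and listed as miR-214-3p) summed to 40.2% to 44.0% of the normalized counts in perfusion, 28.4% to 44.5% on microcarriers and 25.7% to 42.5% on plates. The 7 blood-cell miRNAs looked for summed to 0.00368% to 0.0295% in perfusion, 0.195% to 0.750% on microcarriers and 0.0528% to 0.298% on plates. Of these, miR-223, a myeloid miRNA, was listed at 0 in all 4 perfusion libraries. All 7 were lower in perfusion than on plates in limma (adjusted p under 0.05), as were 10.3% of all rows, and lower in perfusion than on microcarriers, as were 9.92%. The call of miR-150, a lymphocyte miRNA, against plates was lost without perfusion donor 1, 3 or 4 or plate donor 1 or 2 (adjusted p = 0.0658 to 0.113), in the blocked fit without donor 4 (0.0870), in limma-voom without donor in the fit (0.0817) and with a pseudocount of 10 (0.0575). Without donor in the fit, none of the 7 was called between microcarriers and plates in limma or limma-voom. Each of these fits called 6 of all 252 rows. An unadjusted p under 0.05 in limma was found for 1 of the 7 (miR-451, a red-cell miRNA) and for 20.2% of all rows. On average all 7 were higher on microcarriers, with a median log2 fold change of 1.09 against 0.11 over all rows. On microcarriers miR-223 was called higher than on plates in blocked limma-voom (adjusted p = 0.0258), and miR-451 in the blocked limma fit without donor 1 (adjusted p = 0.0258). The 3 endothelial and liver miRNAs were called lower in perfusion in both comparisons as well, at 0.0118% to 0.0198% of normalized counts in perfusion, 0.0834% to 0.678% on microcarriers and 0.0622% to 0.303% on plates. Of these, miR-126-5p lost its call against plates in the blocked limma fit without donor 3 or 4 (adjusted p = 0.0583 and 0.0572). Of the 6 stromal miRNAs, miR-143-3p and miR-145-5p were called higher in perfusion than on microcarriers, as were 14 of all 252 rows. With donor in the limma fit both were lower on microcarriers than on plates (adjusted p = 0.0285 and 0.0282), as were 10 of all 252 rows. The log2 fold changes of the 6 ran from -0.12 to 1.59 in the former comparison and from -1.23 to 0.42 in the latter. The call of miR-143-3p against microcarriers was lost in limma without perfusion donor 2 or 3 or microcarrier donor 1 or 4 (adjusted p = 0.0515 to 0.0727), and that of miR-145-5p without perfusion donor 1 or 3 or microcarrier donor 1 (0.0509 to 0.0576). The part of these differences in the results below was not tested.

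The 4 members spanned a wide range of abundance. miR-100 was the 8th of 252 by mean level, with 4.35% ± 1.38 of the normalized counts (SD, n = 12), and miR-99a-5p stood at 15 with 1.20% ± 0.904. miR-99b held 0.106% ± 0.0331 and miR-125a 0.0681% ± 0.0327, at positions 56 and 67. Together the members made up 6.54% ± 0.992 in perfusion, 5.42% ± 1.04 on microcarriers and 5.20% ± 1.70 on plates (SD, n = 4 each). Levels of different rows are compared as normalized read counts. The similar members of the miR-99/100 family may share reads, as may miR-125a and miR-125b, and the rows of the let-7 family. How the authors assigned such reads is not given in the sources used here, so each row is uncertain as a separate miRNA.

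miR-100 was lower on plates than in either other culture of the same donor, in every donor. In perfusion, donors 1 to 4 had 63300.1, 84184, 39693 and 55215.5 normalized counts. On microcarriers the same donors had 66740.1, 68571, 43974 and 54952, and on plates 56289, 44006, 22655 and 33960.5. The groups overlap, because donors differed as well: donor 3 was lowest in all 3 cultures. The means were 60598 ± 18526 in perfusion, 58559.5 ± 11444 on microcarriers and 39228 ± 14333 on plates (SD, n = 4 each).

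miR-99a-5p had another order, lowest on microcarriers. In perfusion, donors 1 to 4 had 10508.5, 12164, 16169.5 and 13518 normalized counts, on microcarriers 10992, 5159.6, 9227 and 7473, and on plates 12281, 12459.8, 13503 and 51724. All 4 microcarrier libraries lay below all 4 plate libraries, while the perfusion range overlapped both. The plate library of donor 4 stood 4.06-fold above the geometric mean of the other 3 plate libraries, and 5.16% of the 252 rows deviated more in that library. The means were 13090.0 ± 2394 in perfusion, 8213 ± 2491 on microcarriers and 22492 ± 19496 on plates (SD, n = 4 each).

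miR-99b was lowest on plates in donors 1 to 3. It had 1461, 1323, 1322 and 1666 normalized counts in perfusion, 1978, 1134, 1239.6 and 1268 on microcarriers, and 920.2, 744, 679.6 and 1574 on plates. The plate library of donor 4 was again the highest of its group, inside the perfusion range. The means were 1443 ± 162 in perfusion, 1405 ± 386 on microcarriers and 979 ± 409 on plates (SD, n = 4 each).

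miR-125a varied most between donors on plates. It had 1142, 853, 844 and 1155 normalized counts in perfusion, 752, 577, 595 and 1108 on microcarriers, and 858, 241, 173 and 1591 on plates. The plate libraries of donors 2 and 3 were the lowest of all 12, and that of donor 4 was the highest. The value of plate donor 2 rests on 49 reads of 264407, a share of 0.0185% (Wilson 95% interval 0.0140% to 0.0245%, counting error only). The plate library of donor 3 held 276 reads, or 0.0149% (0.0132% to 0.0168%). The means were 999 ± 173 in perfusion, 758 ± 246 on microcarriers and 716 ± 659.5 on plates (SD, n = 4 each).

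**Figure D1:**
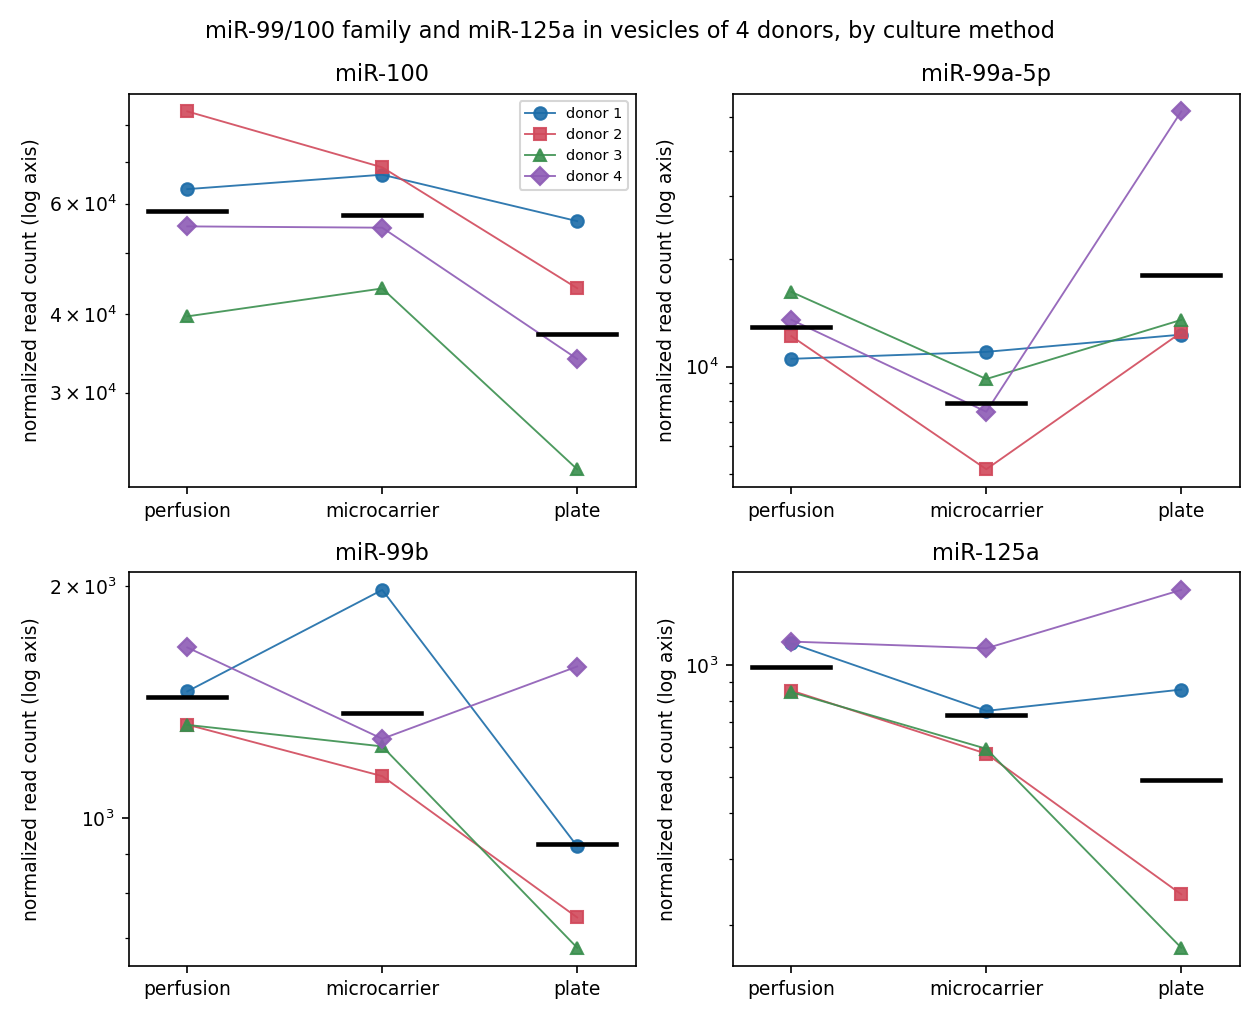
Normalized read counts (log axis) of miR-100, miR-99a-5p, miR-99b and miR-125a by culture method; each coloured line joins the 3 libraries of 1 donor and the black bar is the geometric mean of 4 libraries. The plate value of miR-100 is the lowest of the 3 in all 4 donors, and donor 4 stands apart on plates for miR-99a-5p at 51724.

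Perfusion was compared with plates to ask how culture on a perfused scaffold changed the vesicle miRNAs. On average miR-100, miR-99b and miR-125a were higher in perfusion and miR-99a-5p was lower, but none of the 4 passed an adjusted p of 0.05 in limma without donor in the fit, where 20.6% of all 252 miRNAs did. Before adjustment 1 of the 4, miR-100, had a p under 0.05 in limma, as did 31.3% of all rows. Limma-voom on recovered reads without donor in the fit called 0 of the 4 and 48 of all 252 rows. miR-100 had a log2 fold change of 0.65 ± 0.30 (SE, 4 libraries per group; adjusted p = 0.150) and was higher in 4 of 4 donors. With donor as a block in limma its adjusted p was 0.0170, the only one of the 4 members to pass, beside 25.4% of all miRNAs. Without donors 2, 3 or 4 that blocked adjusted p was 0.0969, 0.113 and 0.0568, with log2 fold changes of 0.56, 0.60 and 0.64. Those smaller fits also called fewer of all 252 rows (42, 31 and 52, against 64). In bulk vesicle preparations, fewer vesicles of a kind and less of a miRNA per vesicle cannot be told apart, and all values are relative to the other miRNAs of the library.

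Among the other members, miR-99b had a log2 fold change of 0.63 ± 0.30 (adjusted p = 0.160 in limma) and was higher in 4 of 4 donors. miR-125a had the largest fitted difference of the 4, 1.01 ± 0.56 (adjusted p = 0.243), higher in 3 of 4 donors and lower in donor 4. miR-99a-5p had -0.48 ± 0.41 (adjusted p = 0.447), lower in 3 of 4 donors. These values depended on single libraries, in both directions. Without the plate library of donor 4, miR-99b had 0.89 and miR-125a 1.58, both with an adjusted p of 0.0341 in limma. That fit called 46 of all 252 rows, and there miR-99a-5p had 0.02 (adjusted p = 0.982). In the blocked limma fit without donor 3, miR-99b had 0.53 and miR-125a 0.59 (adjusted p = 0.351 and 0.412). There 31 of all 252 rows were called. None of the 4 members separated perfusion from plate libraries without overlap, which 23% of all rows did. The median log2 fold change of the members was 0.64, against -0.06 over all 252 rows.

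Microcarriers were compared with the same plate libraries, so both comparisons share their plate values. miR-100, miR-99b and miR-125a were again higher on average and miR-99a-5p lower, and none of the 4 was called in limma, beside 2.38% of all miRNAs. An unadjusted p under 0.05 in limma was found for 1 of the 4, miR-99a-5p, and for 20.2% of all rows. Limma-voom without donor in the fit called 0 of the 4 and 6 of all 252 rows. miR-100 had a log2 fold change of 0.63 ± 0.30 (adjusted p = 0.237) and was higher in 4 of 4 donors. With donor as a block it passed (adjusted p = 0.0440), the 1 member among 9.13% of all miRNAs called in that fit. It did not pass with donor block and library totals (adjusted p = 0.0534), nor in the blocked fit without donor 2 (0.127), donor 3 (0.263) or donor 4 (0.118).

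miR-99a-5p showed the largest difference of the members between microcarriers and plates, with a log2 fold change of -1.19 ± 0.41 (adjusted p = 0.122 in limma). It was lower in 4 of 4 donors and the only member whose groups did not overlap, as 11.9% of all rows did not. With donor as a block the adjusted p was 0.0686. Without the plate library of donor 4 the log2 fold change was -0.69. miR-99b had 0.57 ± 0.30 (adjusted p = 0.255), higher in 3 of 4 donors. miR-125a had 0.58 ± 0.56 (adjusted p = 0.560), with 2 donors in each direction. The median of the 4 members was 0.57, against 0.11 over all 252 rows.

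Perfusion and microcarriers were compared directly to ask whether these cultures differ from each other. No member was called in limma, with or without donor as a block, where 15.5% and 23.4% of all miRNAs were. Limma-voom called 0 of the 4 as well, beside 49 of all 252 rows without the block and 75 with it. None of the 4 had an unadjusted p under 0.05 in either limma fit, while 29.4% of all rows did without donor and 35.3% with it. miR-100 had a log2 fold change of 0.02 ± 0.30 (adjusted p = 0.964), with 2 donors in each direction. miR-99b had 0.07 ± 0.30 (adjusted p = 0.879). The sign of both turned when single libraries were left out. miR-125a had 0.43 ± 0.56 (adjusted p = 0.620) and was higher in 4 of 4 donors, by 0.06 in donor 4 and by 0.51 to 0.60 in the others. miR-99a-5p had 0.71 ± 0.41 (adjusted p = 0.264), higher in donors 2 to 4 and at -0.06 in donor 1. No member separated the groups without overlap, and 24.6% of all rows did.

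**Figure D2:**
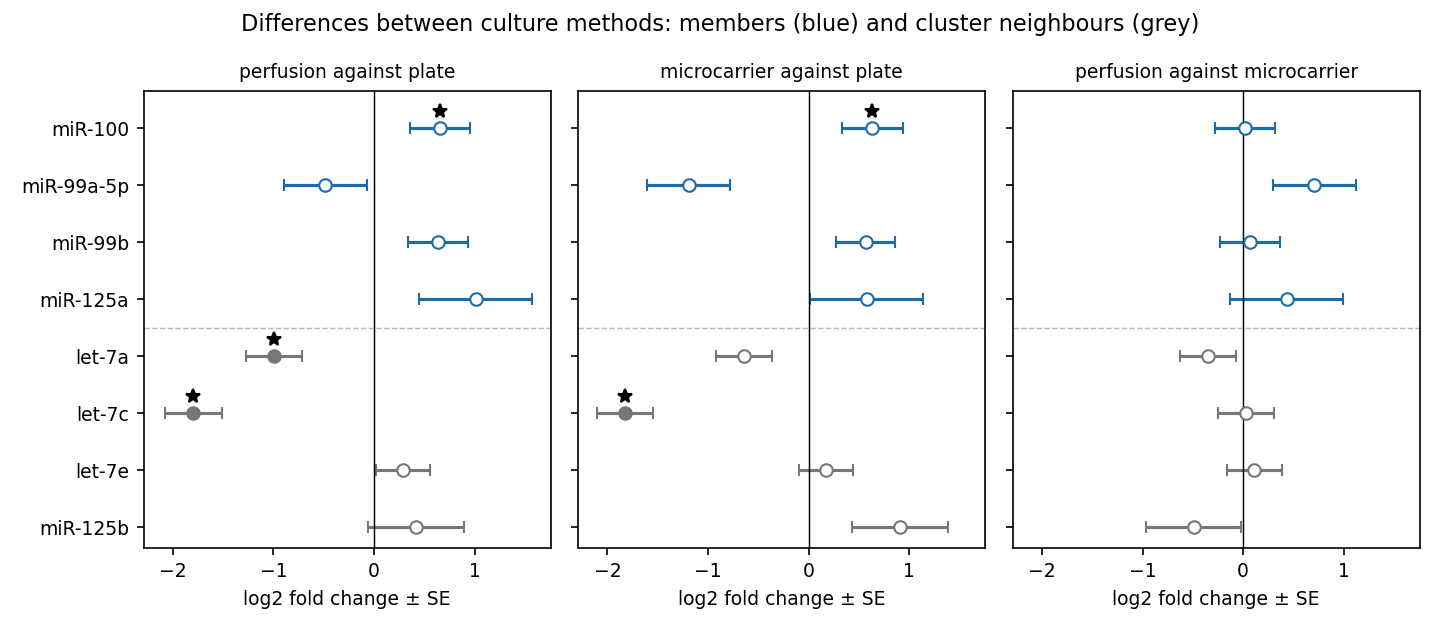
Log2 fold changes (points) with SE (bars) of the 4 members (blue) and 4 cluster neighbours (grey) in 3 comparisons of culture methods, 4 libraries per group. A filled point passed an adjusted p of 0.05 in limma and a star marks the same with donor as a block; filled points are let-7c against plates in both comparisons and let-7a in perfusion against plates, and miR-100 carries a star in both comparisons with plates.

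Among the cluster neighbours, let-7c was called lower than plates in both other cultures and let-7a in perfusion. Of all rows, 10.3% were called lower than plates in perfusion and 0.794% on microcarriers. let-7c, encoded beside miR-99a, had 1819, 2277, 3299 and 2916 normalized counts in perfusion, 2316, 3245, 2653 and 1844 on microcarriers, and 8247, 6626, 8414 and 12633 on plates. Both cultures lay below every plate library. Of all rows, 23% separated perfusion and 11.9% microcarriers from plates without overlap, in either direction. Its log2 fold change against plates was -1.80 ± 0.28 in perfusion (adjusted p = 0.00163 in limma) and -1.83 ± 0.28 on microcarriers (adjusted p = 0.00185). let-7a, encoded beside miR-100 and also elsewhere, had 33185 to 36029 normalized counts in perfusion, 32608 to 67928 on microcarriers and 45183 to 103077 on plates. It fell by 0.99 ± 0.28 on the log2 scale in perfusion (adjusted p = 0.0230 in limma), lower in 4 of 4 donors. That call was lost without perfusion donor 1 or 3 or plate donor 1 or 4 (adjusted p = 0.0529 to 0.0593). On microcarriers let-7a had -0.65 ± 0.28 (adjusted p = 0.202).

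let-7e, encoded between miR-125a and miR-99b, had log2 fold changes against plates of 0.29 ± 0.27 in perfusion and 0.18 ± 0.27 on microcarriers (adjusted p = 0.483 and 0.753). miR-125b, a relative of miR-125a, had 0.42 ± 0.48 and 0.91 ± 0.48 (adjusted p = 0.576 and 0.255). Its plate libraries of donors 2 and 3 were also the lowest, at 1995 and 1292 normalized counts against 5578 and 7683 in donors 1 and 4. The let-7 family had 8 rows, which include miR-98. Of these 8, let-7c and let-7a were the 2 called lower in perfusion than on plates, as 10.3% of all rows were. On microcarriers let-7c was the 1 called lower, as 0.794% of all rows were. The other 5 rows (let-7d-5p, let-7f-5p, let-7g, let-7i-5p and miR-98) and let-7e were not called in any comparison, with log2 fold changes against plates from -0.35 to 0.45. The median over the 8 was -0.16 in perfusion and 0.02 on microcarriers. Of the miR-10 relatives, whose sequences resemble the miR-99/100 family, miR-10a-5p and miR-10b were not called either. In perfusion against plates they had -0.52 ± 0.65 and -0.65 ± 0.29 (adjusted p = 0.616 and 0.136).

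Of the passenger arms of the member hairpins, miR-99a-3p was the 1 with a row in the table. It was rare, at 5 to 14 reads in perfusion, 2 to 34 on microcarriers and 0 to 82 on plates. It was not called in any comparison. The plate library of donor 4 held 52 reads of miR-99a-3p beside 127048 of miR-99a-5p, and that of donor 3 held 82 beside 21498.

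Ratios of a pair of rows in the same library do not depend on how libraries are scaled. Each of the 6 ratios was compared in 3 ways by an exact two-sided permutation test with 4 libraries per group, whose smallest possible p is 0.0286. None of the 18 tests passed after Benjamini-Hochberg adjustment. Ratios with fully separated groups cannot go below that smallest p, which became 0.129 after adjustment over the 18 tests. These tests could thus not call the separation of a few single ratios. The ratio of miR-100 to let-7a was 1.91, 2.50, 1.17 and 1.53 in perfusion, 1.42, 1.01, 1.35 and 1.59 on microcarriers and 0.737, 0.728, 0.501 and 0.329 on plates (donors 1 to 4). miR-100 thus had a higher normalized count than let-7a in all 8 perfusion and microcarrier libraries and in no plate library. The log2 ratio was higher than on plates by 1.65 in perfusion and by 1.28 on microcarriers, in 4 of 4 donors each (exact permutation p = 0.0286, adjusted p = 0.129 for each).

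The ratio of miR-99a-5p to let-7c was 5.77, 5.34, 4.90 and 4.64 in perfusion, 4.75, 1.59, 3.48 and 4.05 on microcarriers and 1.49, 1.88, 1.60 and 4.09 on plates. Perfusion lay above all plate libraries, with a log2 difference of 1.31 (exact permutation p = 0.0286, adjusted p = 0.129), while plate donor 4 lay within the microcarrier range. The ratio of miR-100 to miR-99a-5p was 6.02, 6.92, 2.45 and 4.08 in perfusion, 6.07, 13.3, 4.77 and 7.35 on microcarriers and 4.58, 3.53, 1.68 and 0.657 on plates. Microcarriers lay above all plate libraries, by 1.83 on the log2 scale (exact permutation p = 0.0286, adjusted p = 0.129). In plate donor 4 the order of these 2 miRNAs was turned round, with a higher normalized count for miR-99a-5p than for miR-100.

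In the cluster of miR-99b, let-7e and miR-125a no ratio separated any pair of cultures without overlap. miR-99b stood below let-7e in every library except that of microcarrier donor 1, where the ratio was 1.02. The log2 ratio was higher than on plates by 0.35 in perfusion (exact permutation p = 0.143, adjusted p = 0.386) and by 0.39 on microcarriers (exact permutation p = 0.371, adjusted p = 0.514). The ratio of miR-99b to miR-125a kept to 1.28 to 1.57 in perfusion, against 1.14 to 2.63 on microcarriers and 0.989 to 3.90 on plates, and no difference in its mean came near the threshold (smallest exact permutation p = 0.229). The log2 ratio of miR-125a to let-7e averaged -1.45 ± 0.25 in perfusion, -1.77 ± 0.53 on microcarriers and -2.17 ± 1.23 on plates (SD, n = 4 each). Between perfusion and plates it differed by 0.72 (exact permutation p = 0.400, adjusted p = 0.514).

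**Figure D3:**
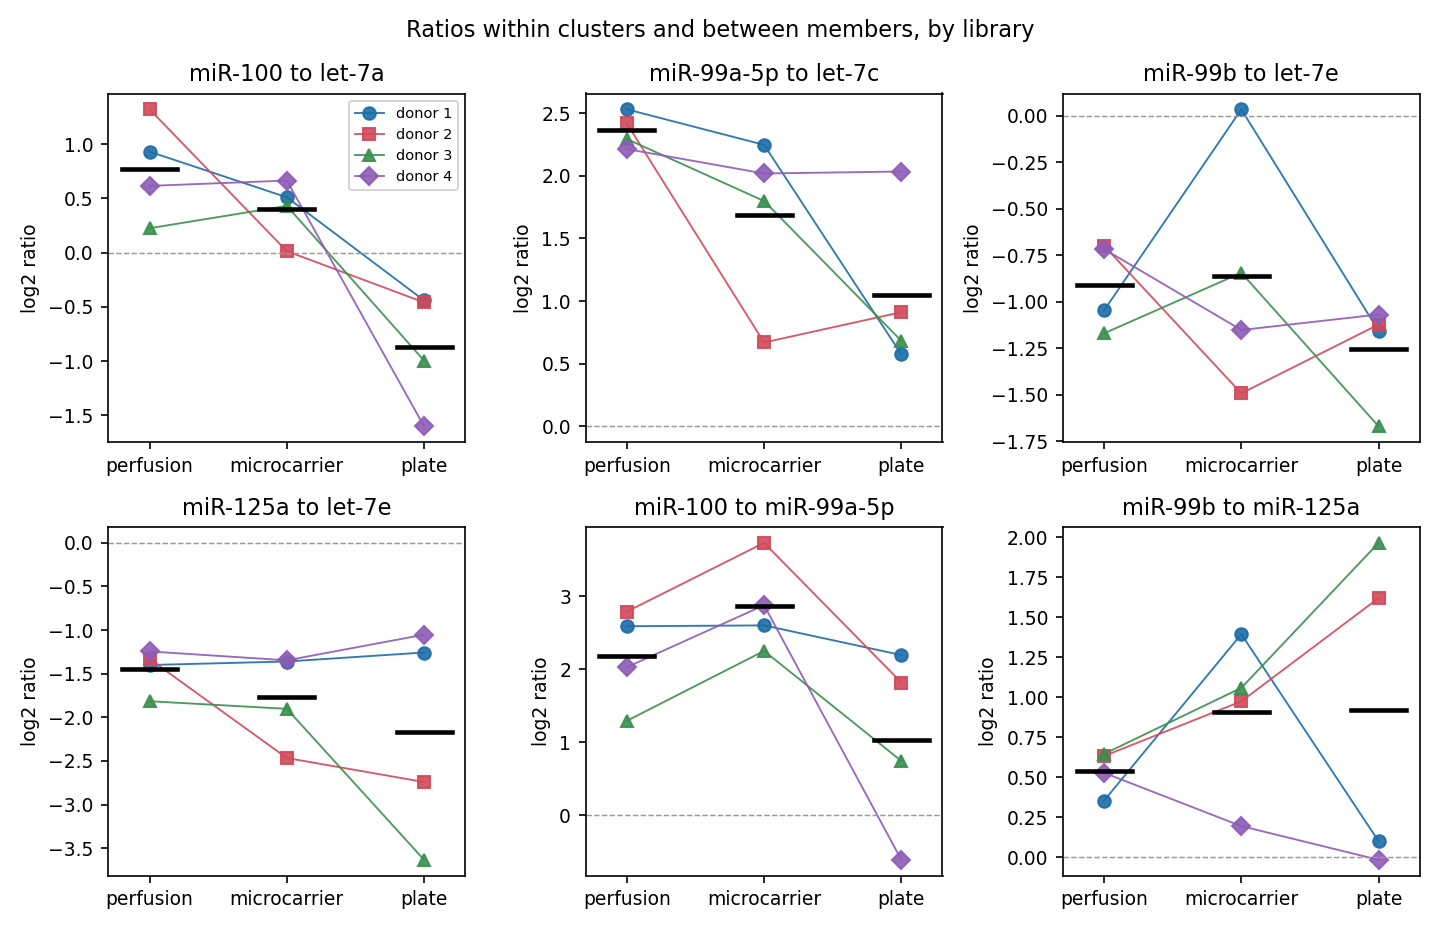
Log2 ratios of member miRNAs to the let-7 miRNA of their cluster and to each other, by culture method; coloured lines join the 3 libraries of 1 donor and black bars are means of 4 libraries. The ratio of miR-100 to let-7a lies above 0 in all perfusion and microcarrier libraries and below 0 on all 4 plates.

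The members differed in how far donor and culture method went with their level. The squared deviation of log2 values over the 12 libraries was split into culture method, donor and remainder, as a description without a test. The shares were not adjusted for the numbers of cultures and donors, and random spread alone gives each of them some share. For miR-100, culture method took 37.8%, donor 54.0% and the remainder 8.12%. For miR-125a the shares were 21.4% for culture method and 48.6% for donor. For miR-99a-5p and miR-99b culture method took more, 42.2% and 41.9%, than donor, 19.3% and 29.5%. The medians of each share over all 252 rows were 39.0% for culture method, 24.4% for donor and 28.3% for the remainder. let-7c was unlike all 4 members, with 87.6% in culture method and 2.45% in donor.

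**Figure D4:**
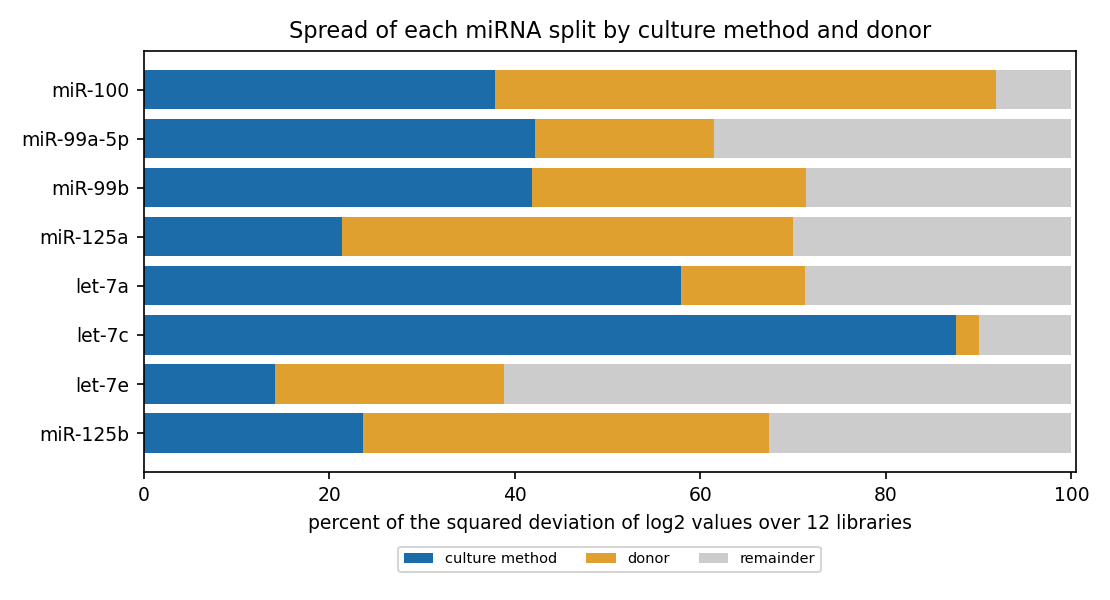
Split of the squared deviation of log2 values over 12 libraries (percent, bars sum to 100) into culture method (blue), donor (orange) and remainder (grey) for the 4 members and 4 cluster neighbours. The remainder of miR-100 is 8.12% and the culture share of let-7c is 87.6%.

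The rows most like each member were found by the SD of the log2 ratio over the 12 libraries, among 139 other rows with a mean of 100 or more. These values describe libraries that share donors, cultures and depth, and no test was made. For miR-100 they were miR-24-1-5p (SD 0.40), miR-425-5p (0.41) and let-7d-3p (0.43), with a median of 0.81 over the rows compared. For miR-99a-5p they were miR-196a (0.47), miR-340 (0.59) and miR-196b-5p (0.59), with a median of 0.96. For miR-99b they were miR-30d (0.37), miR-769-5p (0.40) and miR-30c-5p (0.41), with a median of 0.77. For miR-125a they were miR-125b (0.46), let-7d-3p (0.67) and miR-455-3p (0.75), with a median of 1.12. The member miR-99b, left out of this ranking, was closer to miR-125a (0.63) than let-7d-3p was.

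The members of the miR-99/100 family were not the likest rows of each other. The SD of the log2 ratio was 1.13 between miR-100 and miR-99a-5p, 0.84 between miR-99a-5p and miR-99b and 0.50 between miR-100 and miR-99b. Between miR-99b and miR-125a, from the same cluster, it was 0.63, and between miR-99b and let-7e 0.43.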

How the data were processed

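Small RNA of vesicles from 12 cultures (4 donors, 3 culture methods) had been prepared with a NEBNext kit, per the labels' protocols. The submitters' processing notes name Bowtie. Its version, build, annotation and counting rule were not given in the sources used here. Per the file header, the authors deposited a normalized read count per mature miRNA, treated here as a signal. The values of a library were all multiples of 1 step, to within 0.001 of a read, and each step times a recomputed median-of-ratios size factor gave 1, so reads were recovered from the steps. The lowest value above 0 stood for 2 reads (5 in plate donor 4).

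Each comparison was fitted on log2(value + 1) in limma 3.58.1 (R 4.3.3, mean-dependent prior variance) with all 12 libraries and culture method as the factor. Rows at 1 or more in at least 4 libraries were kept, which all 252 were. Benjamini-Hochberg adjustment ran over all 252 p-values, and called means an adjusted p under 0.05. Fold changes on this scale understate the change of low rows. Ratios were tested by exact permutation and shown with Python 3.11.15, NumPy 2.4.6, SciPy 1.17.1, pandas 2.3.3 and matplotlib 3.10.9. The fit was tested on simulated data. Donor numbers pair the libraries by the labels; the correlation of their deviations from the group means was 0.0205 to 0.673 over donors and pairs of groups. The foreseen design asked for limma if the table held normalized values.

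The members and lists were chosen with earlier results of these data known. The rule for named miRNAs was the 4 members, all measured cluster neighbours, let-7 rows, miR-10 relatives and other arms. To these were added, for each member, the 3 likest rows outside the 4 members. Alternatives were the donor block, pseudocounts of 0.1 and 10, library totals, TMM scaling, other filters, fits of 2 groups and leaving out each library. A limma-voom fit of the recovered reads, library totals with the block and the block without each donor were added after seeing the data. No mature sequences were used here.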

Additional observations from a re-analysis of the deposited data

Results flagged for a closer look

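In groups of 4 libraries, single libraries that stood apart from the other 3 by Dixon's criterion at the 95% level were looked for in 66 groups. It marked 9, and chance would mark about 3.3. Among the members these were the miR-99a-5p value of plate donor 4 (51724 normalized counts) and the miR-99b value of microcarrier donor 1 (1978). Plate donor 4 was also high for let-7f-5p (96295) and miR-10b (25930). Among microcarriers, donor 4 was high for miR-125b (10063), donor 2 for let-7d-5p (2949.8) and donor 3 for miR-99a-3p (21.7), while donor 1 was low for let-7i-5p (71415.5). The log2 ratio of miR-99b to let-7e was low in plate donor 3 (-1.67). Plate donor 4 is the most deeply sequenced library, and the part of depth in its values was not tested.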

How the results depend on the processing

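With donor as a replicate block, miR-100 passed an adjusted p of 0.05 in limma in perfusion against plates (log2 fold change 0.65, adjusted p = 0.0170), also with library totals and the block (0.73, 0.0103) and in limma-voom with the block (0.70, 0.00860). In microcarriers against plates it passed with the block (0.63, 0.0440) and in limma-voom with the block (0.57, 0.0420), and there miR-99a-5p passed as well (-1.24, 0.0360). The block thus called 2, and limma-voom with the block 3, of the 16 described miRNAs, against 1 without it. Among the members and listed miRNAs the block changed no other call. Among the marker miRNAs it added miR-143-3p and miR-145-5p on microcarriers against plates and miR-214-3p, which was higher in perfusion than on microcarriers. The planned edgeR fits, with and without the block, were not run, since the reads had to be recovered from the normalized values, and limma-voom was used in their place.

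Under other settings of the limma fits, signs turned only for miRNAs that were not called. The log2 fold change of miR-99a-3p was 0.66 in perfusion and 0.017 on microcarriers against plates with a pseudocount of 0.1. That of let-7g on microcarriers against plates was -0.0020 with library totals, with or without the block. In perfusion against microcarriers let-7d-5p had 0.0058 with library totals, and let-7g had 0.13 with library totals, 0.079 with TMM scaling, 0.077 in limma-voom and 0.074 in limma-voom with the block. The median of all rows in that comparison was -0.07 as deposited and 0.08 with library totals. The calls there split into 14 higher and 25 lower as deposited, 17 and 20 with library totals and 26 and 23 in limma-voom.

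Leaving out 1 library, or 1 donor from the blocked fit, gave these ranges of log2 fold changes. In perfusion against plates they were 0.42 to 0.85 for miR-100, -0.73 to 0.022 for miR-99a-5p, 0.49 to 0.89 for miR-99b and 0.51 to 1.58 for miR-125a. Without plate donor 4 (adjusted p = 0.0341 each), or without donor 4 in the blocked fit (0.0332 and 0.0315), miR-99b and miR-125a passed. Of the others, miR-125b had -0.025 to 0.84, let-7g -0.076 to 0.18, let-7i-5p -0.074 to 0.14 and miR-99a-3p -1.25 to 0.65. Between 1 and 4 of the described miRNAs were called. let-7a also lost its call in the blocked fit without donor 1 (adjusted p = 0.0565).

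In microcarriers against plates the ranges were 0.40 to 0.83 for miR-100 and -1.54 to -0.66 for miR-99a-5p, which passed in the blocked fit without donor 1 (adjusted p = 0.0326). They were -0.091 to 0.37 for let-7e, -0.47 to 0.019 for let-7d-5p, -0.20 to 0.19 for let-7f-5p, -0.074 to 0.21 for let-7g and -0.087 to 0.20 for miR-98. They were -0.61 to 0.29 for miR-10a-5p, -0.35 to 0.18 for miR-10b and -1.80 to 0.10 for miR-99a-3p, and 1 to 3 described miRNAs were called. In perfusion against microcarriers they were -0.16 to 0.21 for miR-100, -0.041 to 0.24 for miR-99b, -0.18 to 0.21 for let-7c and -0.065 to 0.34 for let-7e. let-7d-5p had -0.27 to 0.18, let-7g -0.094 to 0.078 and miR-10a-5p -0.81 to 0.13.

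Of all 252 rows, 6 were called in microcarriers against plates, against 23 with the block, 21 with library totals and the block, 37 in limma-voom with the block, 3 with only the 2 groups and 4 with a pseudocount of 0.1. In perfusion against microcarriers 39 were called, 59 with the block (with or without library totals) and 75 in limma-voom with the block. Leaving out 1 library without the block gave 29 to 55 calls in perfusion against plates, where all libraries gave 52, 3 to 12 in microcarriers against plates and 22 to 49 in perfusion against microcarriers. Leaving out 1 donor from the blocked fit gave 31 to 52 calls, where all donors gave 64, 5 to 27 beside 23 and 29 to 54 beside 59 in the same order of comparisons. Log2 ratios with 1 library left out are values without a test. Signs turned for miR-99b to let-7e in perfusion against microcarriers (-0.25 to 0.25), and on microcarriers against plates for miR-125a to let-7e (-0.085 to 0.78) and for miR-99b to miR-125a (-0.32 to 0.34, and 0.0021 with a pseudocount of 10). With donor as a block, the exact sign-flip test of 4 pairs cannot give a p below 0.125 for a ratio.

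Depth limits the rare rows most, in the shallow plate library of donor 2 above all. Nothing in the labels says how any reads shared by similar family members were assigned. Donors are the unit of replication, 4 per group, and the groups differ in more than 1 condition.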
